A study of Mus musculus and synthetic construct with 32 samples.

Results

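Ythdc2 and the genes of its 3 known protein partners, Meioc, Rbm46 and Xrn1, were followed through mouse testis and ovary with and without a functional Ythdc2 gene. The 4 genes were chosen by name, and all 4 were found, each with a sense exon row and a sense intron row, among 22750 gene names in the 4 mouse tables. YTHDC2 is a helicase that unwinds RNA in the 3′ to 5′ direction and carries a YTH domain, a fold that recognises N6-methyladenosine (m6A), the most abundant internal modification of messenger RNA. In germ cells it forms a complex with the meiosis-specific protein MEIOC and the RNA-binding protein RBM46, and mice that lack any of these 3 proteins fail in meiotic prophase and are sterile. YTHDC2 also contacts XRN1, the cytoplasmic enzyme that degrades decapped RNA from its 5′ end, and the complex is known for lowering transcripts of the mitotic cell cycle as germ cells enter meiosis.

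The series held total RNA of whole gonads from C57BL/6J mice, sequenced after removal of ribosomal RNA with a stranded kit. Testes at postnatal day 12 (P12) gave 3 Ythdc2 -/- and 3 Ythdc2 +/- libraries, testes at P8 gave 2 Ythdc2 -/-, 1 Ythdc2 +/- and 1 Ythdc2 +/+ library, and ovaries at P0 gave 2 Ythdc2 -/- and 2 Ythdc2 +/- libraries. For m6A, polyadenylated RNA of Ythdc2 +/+ testes at P8 was fragmented and precipitated with an antibody against m6A, with 1 library of the precipitate and 1 of its input. There were 2 mutant lines, 1 with a 152 bp deletion that takes out exon 7 and 1 with stop codons inserted into exon 7, and the labels do not say which line gave a library. In a bulk gonad, fewer cells of a type and less RNA per cell cannot be told apart.

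All values per gene came from the authors' deposited tables, which give a mean normalized count over all libraries of a table, a log2 fold change between groups and an adjusted p, with no value per library. The mean normalized counts of sense exons summed to 18950009 at P12, 18836262 at P8, 7976122 in the ovary and 18420738 in the m6A table. The deposited log2 folds narrow at low counts, with an SD over features of 0.0529 at P12 for mean counts of 1 to 10 against 0.171 for counts of 100 to 1000, as for folds drawn toward 0, so sizes are compared within a table only. The labels number the samples without saying that they came from separate animals, so the adjusted p-values measure the spread between these samples, which may be technical. The ovarian marker Foxl2 had a mean normalized count of 195 in ovary, 2.87 in P12 testis and 0.605 in P8 testis, while the testis genes Sox9 and Dhh stood at 125 and 63.3 in ovary against 1399 and 3126 in P12 testis. These counts are not scaled to the sense exon sums above, so their ratios between tissues are not measured here. In the P8 testis the heterozygous library stood apart in 5 measured spermatid markers. In the authors' deposited table their log2 folds ran from -1.03, for the protamine gene Prm2, to -0.42 in the knockout against the heterozygote. They ran from 0.28 to 0.74 in the heterozygote against the wild type and from -0.29 to -0.12 in the knockout against the wild type. Each control was 1 library.

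Ythdc2 itself was the member that fell in the P12 testis. Its exons had a mean normalized count of 950.4 over the 6 libraries and a log2 fold change of -1.29 in the knockout, a ratio of 0.409 (adjusted p = 9.87e-25, from the authors' deposited table). Of 15608 sense exon features with a mean count of at least 10, 0.782% were called lower at an adjusted p below 0.05, and 8 had a lower fold than Ythdc2. Of the other 3 members, 0 were called in either direction, against 0.878% of features. Of 6 germ cell markers, 0 were called at P12, and their median was -0.06 (range -0.13 to 0.15). Of 5 measured Leydig cell markers 1 was called, the steroid enzyme gene Cyp17a1 at 0.76 in the authors' deposited table, and its part in the Ythdc2 value was not tested.

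In the P8 testis the exons of Ythdc2 were not called, although their fold lay at the extreme of its table. The authors' deposited table gave a mean normalized count of 752 and a log2 fold of -0.50 for the 2 knockout libraries against the single wild type (adjusted p of 1). Among 15592 features, 5 had lower folds, and 0.0449% were called in either direction, against 0 of the 4 members. Against the single heterozygote the fold of Ythdc2 was -0.24 (adjusted p of 1), with 68 features lower and 0.0577% called, and the heterozygote stood at -0.26 to the wild type, with 31 features lower, in the authors' deposited table. Of the 15592 features, 0.0449% had a fold over 0.5 in size between those last 2 libraries, which allow no test. In that table the fold of the knockout against the wild type is the sum of the other 2 for all features, so it is not a separate result. For Ythdc2 exons the step from wild type to heterozygote was -0.26 and that from heterozygote to knockout -0.24. Single libraries stood behind 2 of the 3 levels.

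In the newborn ovary Ythdc2 exons had a mean normalized count of 279.6 and a log2 fold of -0.43 in the authors' deposited table, which missed the threshold (adjusted p = 0.584). Of 14606 features, 118 had lower folds. The exon fold of Ythdc2 was therefore below 0 in each knockout comparison, and it passed the test at P12 only, where the groups held 3 libraries each. Whether the fold differed between ages or tissues was not tested, since the tables used here hold no values per library.

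**Figure D1:**
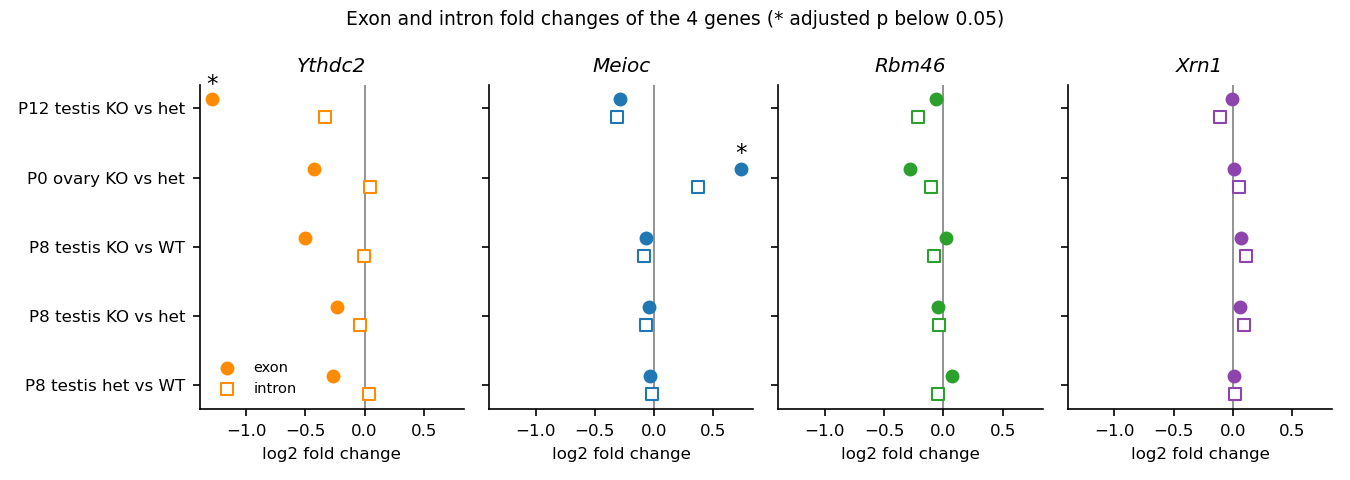
Log2 fold changes (x axis) of exons (filled circles) and introns (open squares) of the 4 genes in the 5 comparisons of genotypes (y axis), from the authors' tables, with no error given. Ythdc2 exons lie left of its introns in every row, Meioc exons lie at 0.74 in ovary, and Xrn1 stays within about 0.11 of 0.

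Introns of Ythdc2 had folds nearer 0 than its exons and were not called. The authors' deposited table gave the introns a mean normalized count of 782 at P12 and a log2 fold of -0.34 (adjusted p = 0.455), where 1.02% of 13885 intron features were called. At P8 the intron fold was near 0 against the wild type at a mean count of 782, with a difference between exon and intron folds of -0.50, and in ovary the intron fold was 0.05 at a mean count of 409.8 (adjusted p of 1 when rounded), per the authors' deposited table. Introns of 0 of the 4 members were called in any knockout comparison, against 0.0141% of 14173 intron features at P8 versus the wild type and 0.0212% versus the heterozygote. The exon fold minus the intron fold was -0.96 at P12, and among 8706 genes whose exons and introns each had a count of 100 or more, 0 had a lower value, against a median near 0. In ovary the same difference was -0.47, with 16 of 6821 genes lower, and at P8 against the wild type 4 of 9253 genes lay lower. Between the single heterozygote and the single wild type at P8 the difference was -0.30, and 14 of the 9253 genes were lower. Against the heterozygote at P8 it was -0.20, with 431 genes lower. The exon count covers the whole gene, so it does not test whether exon 7 is missing or disrupted.

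**Figure D2:**
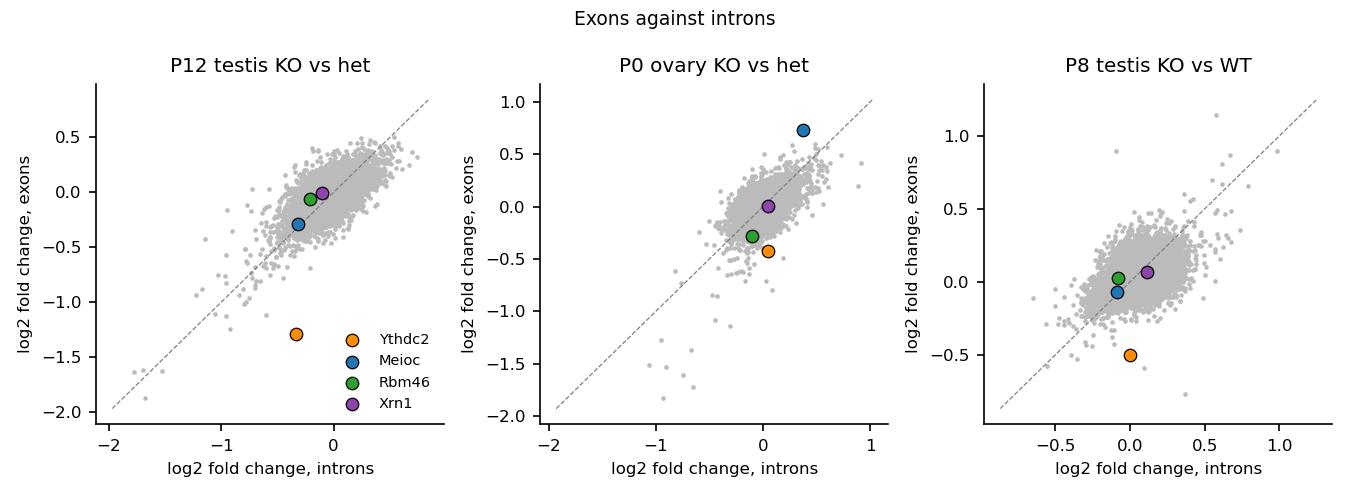
Log2 fold changes of exons (y axis) against introns (x axis) for genes with mean normalized counts of at least 100 in both (grey; the 4 named genes are drawn whatever their count), with the line of equal folds dashed. Ythdc2 lies below the line in all 3 panels, at -1.29 in exons and -0.34 in introns at P12.

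The 4 genes differed in how they were distributed over age and tissue. The tables were normalized separately and mix genotypes, so levels are given with each table's sense exon sum set to 1000000, for a single gene at a time and with no test. Ythdc2 stood at a level of 35.1 in P0 ovary, 39.9 in P8 testis and 50.2 in P12 testis. Its ratios to the ovary level were 1.14 at P8 and 1.43 at P12, where the median gene had 1.16 and 1.19. Meioc, whose product keeps germ cells in meiotic prophase, stood at 30.6 in ovary, 66.1 at P8 and 267 at P12, which is 4.04 times the P8 level. Of 12280 genes, 80 had a larger ratio of P12 to P8, and the median gene had a ratio of 1.01.

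For comparison, the meiotic genes Stra8 and Sycp3 had ratios of P12 to P8 of 2.49 and 3.25, while Ddx4 and Dazl, expressed across germ cell stages, had 1.04 and 1.18. Rbm46, an RNA-binding protein gene of germ cells, stood at 29.3 in ovary, 95.6 at P8 and 105 at P12. Xrn1 ran the other way, with 191 in ovary, 164 at P8 and 131 at P12. So Rbm46 went with Ddx4 and Dazl in being several times higher in testis than in ovary and level between P8 and P12, while Meioc had a several times higher level at P12 than at P8.

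Intron counts set against exon counts separated Meioc from the other members. Its introns had 8.29% of the exon count in ovary, 6.30% at P8 and 5.42% at P12, where the median gene had 59.8%, 45.4% and 32.8%. Ythdc2 introns reached 147% in ovary, 104% at P8 and 82.3% at P12. Rbm46 had 112%, 62.2% and 57.8%, and Xrn1 had 82.6%, 61.5% and 44.5%. The share was highest in ovary and lowest at P12 for each of the 4 genes, as it did for the median gene. Lengths of exons and introns are not given in the tables, and intron length enters these shares. In RefSeq Meioc spans 16890 bases, against 39992 for Rbm46, 61991 for Ythdc2 and 103057 for Xrn1. The part of gene length in these shares was not tested.

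**Figure D3:**
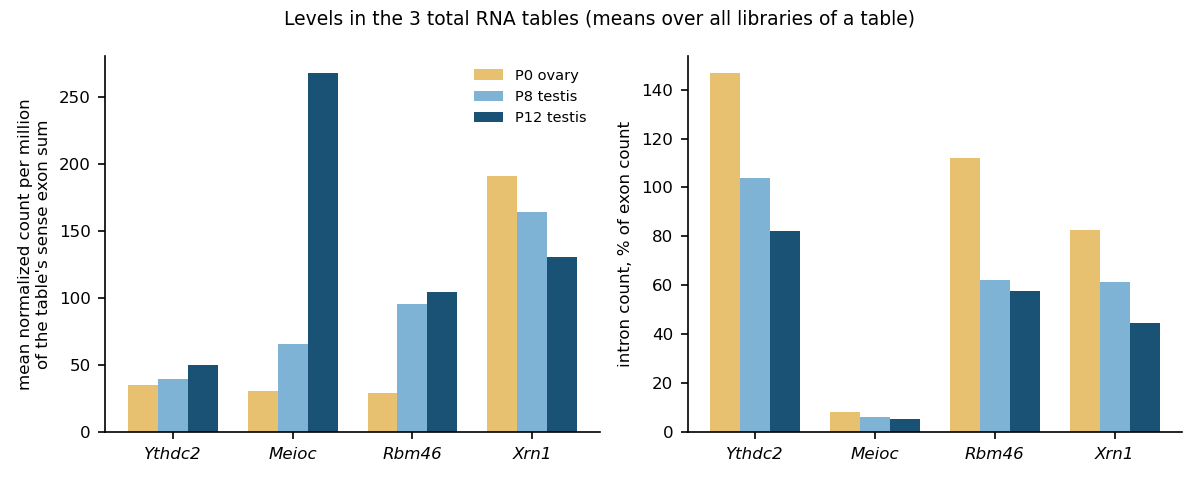
Left, mean normalized count of exons with the table's sense exon sum set to 1000000, for each gene in the 3 total RNA tables; right, intron count as a percent of the exon count; bars are the authors' means over all libraries of a table, with no error. Bars compare tables within a gene, since exon lengths differ between genes. Meioc reaches 267 at P12 against 66.1 at P8.

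Meioc was the member that rose in the newborn ovary. Its exons had a mean normalized count of 244 over the 4 libraries and a log2 fold of 0.74 in the knockout, a ratio of 1.67 (adjusted p = 0.00576), in the authors' deposited table. Of the 14606 features, 0.103% were called higher, 0.445% lower and 0.548% in either direction, and 4 had a higher fold than Meioc, the 1 member of the 4 that was called. Its introns had a mean count of only 20.2 and a fold of 0.37 in the authors' deposited table, which missed the threshold (adjusted p = 0.769), while 0.279% of intron features were called. Of 12915 intron features, 133 had a higher fold.

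In testis the Meioc fold did not pass in any comparison. At P12, with a mean normalized count of 5066, exons stood at -0.29 (adjusted p = 0.577) and introns at -0.32 (adjusted p = 0.745, from the authors' deposited table), so that exons and introns differed by 0.03. Of the 15608 features, 558 had a lower exon fold. At P8, with a mean count of 1246, the fold was -0.07 with the wild type and -0.04 with the heterozygote as control (adjusted p of 1 for both) per the authors' deposited table. The difference between the rise in ovary and the value in P12 testis was not tested.

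Germ cell markers fell beside the rise of Meioc in the ovary, and the part of cell type markers in its rise was not tested. Of 6 germ cell markers, 3 were called lower and 0 higher, against 0.445% and 0.103% of all features. Their median log2 fold was -0.70, with a range from -1.65 to -0.15. The called ones were Mael, Sohlh1 and Dppa3, and neither Ddx4 (-0.34) nor Dazl (-0.15) passed in the authors' deposited table. All 8 Sertoli cell markers, some of which pregranulosa cells share, were above 0 (median 0.17, range 0.02 to 0.36), against 51.8% of all features. Of these 8 markers, 0 were called. Of 5 Leydig cell markers and 6 pregranulosa cell markers 0 were called, with medians of 0.16 and 0.04. Spermatid markers, which a newborn ovary should lack, were measured for 4 of 6 genes at mean normalized counts from 18.1 to 69.6, with folds from 0.03 to 0.37 and 0 called. Stra8, a meiotic entry gene with a mean count of 26.3 in ovary, stood at 0.52 there (adjusted p = 0.0266, from the authors' deposited table). It was the called gene of 8 measured meiotic entry regulators, against 0.103% of all features called higher.

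Rbm46 did not change past the threshold in any knockout comparison. At P12 the authors' deposited table had a mean normalized count of 1983 and a log2 fold of -0.06 in exons (adjusted p = 0.994) and -0.21 in introns (adjusted p = 0.923). In ovary, at a mean count of 234, exons stood at -0.28 and introns at -0.10 (adjusted p of 1 when rounded for both) in the authors' deposited table, and 349 of the 14606 features had lower exon folds. At P8, at a mean count of 1801, the exon fold was 0.02 with the wild type and -0.050 with the heterozygote as control per the authors' deposited table, with an adjusted p of 1 for both. The deposited folds do not show that Rbm46 is unaffected, since the tables hold no interval around them.

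A non-coding gene on the opposite strand begins beside Rbm46, and it is described here because its introns, though not its exons, were called at P12. In RefSeq (GRCm38), Rbm46 covers chr3:82836521-82876512 on the minus strand, and Rbm46os, a long non-coding RNA, covers chr3:82876705-82943638, so that its first base lies 193 bases beyond the last coordinate of Rbm46. Rbm46os was noticed after its values were seen. The authors' deposited table gave its introns a mean normalized count of 272 at P12 and a log2 fold of -0.63 (adjusted p = 0.00841), and its exons a count of 24.6 and a fold of -0.47 (adjusted p = 0.0949). Of all intron features, 1.02% were called at P12. In ovary the Rbm46os introns stood at -0.01 and at P8 against the wild type at 0.22 in the authors' deposited table, and neither passed.

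The 250 bases before a transcript start of Rbm46 (chr3:82876484-82876733, minus strand) and of Meioc (chr11:102665335-102665584, plus strand) follow 5′ to 3′, from RefSeq on GRCm38.p6, to show the promoters of the germ cell members. The starts used are at position 82876483 for Rbm46 and 102665585 for Meioc, which lie 29 and 234 bases inside the outer bounds of these genes, so part of each stretch lies within the annotated gene. Capitals mark matches to CNCCTCAG, reported for STRA8 and MEIOSIN, to CACGTG, an E-box, and to GGCGGGA, a motif of E2F factors, searched on both strands with no overlap between the matches found.
Rbm46: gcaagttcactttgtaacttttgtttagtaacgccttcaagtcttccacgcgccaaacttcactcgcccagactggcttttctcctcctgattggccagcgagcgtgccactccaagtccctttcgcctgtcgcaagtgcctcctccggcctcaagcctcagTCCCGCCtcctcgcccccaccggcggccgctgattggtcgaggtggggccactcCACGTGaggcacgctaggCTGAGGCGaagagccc
Meioc: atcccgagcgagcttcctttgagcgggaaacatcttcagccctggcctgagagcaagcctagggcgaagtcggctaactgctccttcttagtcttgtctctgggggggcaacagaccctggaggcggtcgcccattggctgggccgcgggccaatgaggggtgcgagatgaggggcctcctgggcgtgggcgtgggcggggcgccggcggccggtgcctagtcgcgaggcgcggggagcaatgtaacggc
Rbm46 held 1 match to each motif, TCCCGCC at -88, CACGTG at -34 and CTGAGGCG at -16, counted from the start at 82876483. Within the window from 250 bases before to 50 after the start, 7.97% of 27025 RefSeq promoters held CNCCTCAG, 7.24% held CACGTG and 11.4% held GGCGGGA. Meioc and Xrn1 held 0 matches, and a match or its absence describes these letters only. The 300-base windows held 25 CG dinucleotides in Rbm46, 28 in Meioc and 20 in Xrn1, against a median of 7.

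Xrn1 had exon folds within 0.07 of 0 in every knockout comparison, and 0 were called. In the authors' deposited table its exons had a mean normalized count of 2474 and a fold near 0 at P12 (adjusted p = 0.999), with introns at -0.11 (adjusted p = 0.994). In ovary the exon fold was 0.01 at a mean count of 1522 and the intron fold 0.05, and at P8 against the wild type exons stood at 0.07 and introns at 0.11 at mean counts of 3095 and 1903, per the authors' deposited table, with adjusted p of 1 when rounded. Xrn1 covers chr9:95954750-96057806 (GRCm38, RefSeq).

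**Figure D4:**
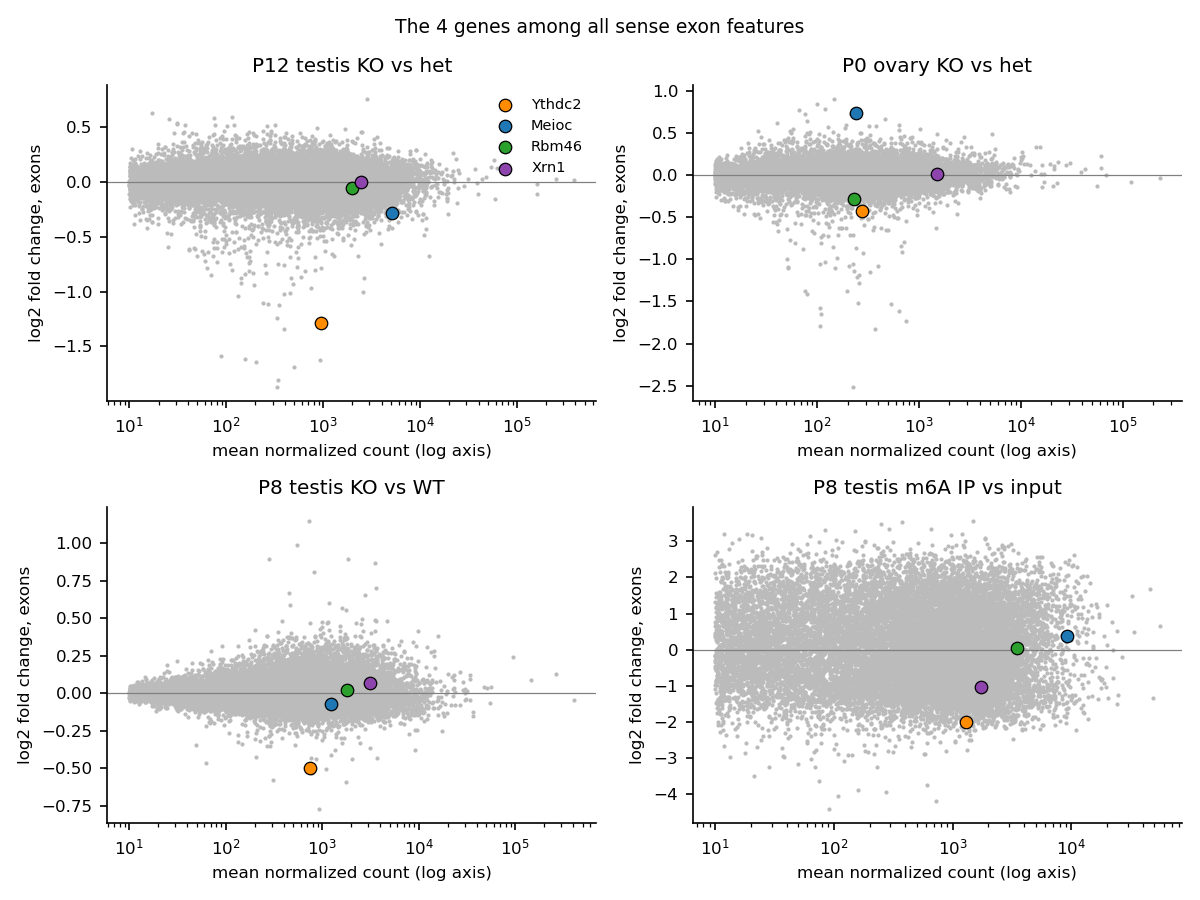
Log2 fold change of exons (y axis) against the mean normalized count (log x axis) for all sense exon features with a mean count of at least 10 (grey) and the 4 genes (colours), in 4 of the authors' comparisons. Ythdc2 lies at -1.29 at P12 and -0.50 at P8, Meioc at 0.74 in ovary, and in the m6A panel Ythdc2 lies at -2.00.

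Transcripts of the 4 genes differed in how well the m6A antibody recovered them from wild-type P8 testis. A log2 ratio of precipitate over input above 0 means that fragments of the gene were taken up more than the average fragment, and with 1 library each there is no test. In the authors' deposited table Ythdc2 exons stood at -2.00 and Xrn1 exons at -1.04, so 2 of the 4 members were below -0.5, against 35.6% of 16399 features. Meioc stood at 0.38 and Rbm46 at 0.03 in the authors' deposited table, and 35.4% of features were above 0.5. Only 228 of the 16399 features had a lower ratio than Ythdc2, and 2977 were lower than Xrn1. The mean normalized counts behind them, over all ages of the m6A table, were 1294 for Ythdc2, 1740.2 for Xrn1, 9104 for Meioc and 3476 for Rbm46.

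Introns of all 4 members were below -0.5 in the m6A precipitate, from -0.93 for Ythdc2 to -0.60 for Xrn1 in the authors' deposited table, against 20.7% of 13055 intron features. Meioc exons thus stood 1.16 above its introns and Rbm46 exons 0.86 above theirs, while Ythdc2 exons stood 1.07 below its own introns (log2 difference of -1.07). The median of this difference was -0.20 over 5364 genes with exon and intron counts of 100 or more, and 756 genes had a higher value than Meioc. Exons of germ cell markers were low as well, with 5 of 5 measured below -0.5, against 35.6% of exon features, and a median of -1.86. The ratio pools all exons of a gene, so 1 methylated stretch in a long transcript can be outweighed by the rest.

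The other m6A readers with a YTH domain differed from Ythdc2 in these values. In the authors' deposited table Ythdf1, Ythdf2 and Ythdf3 of the cytoplasm stood at 0.90, 1.84 and 1.69 in the m6A precipitate. All were above 0.5, against 35.4% of features. The nuclear reader gene Ythdc1 stood at -0.15 there. In the knockout 0 of these 4 were called at P12 or in ovary, where 0.878% and 0.548% of all features were called. Their medians were -0.05 and 0.02, against 0.01 and near 0 for all features. At P12 the authors' deposited table had Ythdf1 at -0.10 and Ythdc1 at -0.08, the largest in size. Of 11 writers and erasers of m6A, 0 were called in either tissue, and Zc3h13 at -0.28 and Rbm15 at -0.22, both genes of the writer complex, were the largest in size at P12 in the authors' deposited table.

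Single genes of the helicase, decapping and deadenylation lists passed the test, where 0.878% of all features were called at P12 and 0.548% in ovary. Of 6 helicase genes close to Ythdc2 in sequence, 0 were called at P12, and in ovary Tdrd9, a helicase of the piRNA pathway, fell to a log2 fold of -1.52 (adjusted p = 1.23e-15, from the authors' deposited table). Among 18 genes of decapping and 5′ to 3′ decay, the pathway in which XRN1 acts last, 1 fell at P12 and 0 in ovary. That gene was Dcp2, which encodes the decapping enzyme, at -0.38 (adjusted p = 0.0376, from the authors' deposited table), and it lies 456 kb from Ythdc2 on chromosome 18 between the centres of the genes. The list had a median of -0.04 at P12 and -0.09 in ovary. Of the deadenylation genes, 0 of 20 were called at P12, and 1 of 21, the oocyte gene Btg4 at -0.46 (adjusted p = 0.0335, mean count 19.4), fell in ovary in the authors' deposited table.

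Nonsense-mediated decay genes had 0 of 10 called at P12 and in ovary, against 0.878% and 0.548% of all features. At P12, 9 of 10 lay below 0 with a median of -0.09, where 52.1% of all features lay above 0. Smg9 at -0.36 and Upf1, the helicase of that pathway, at -0.34 were the largest in size there, with adjusted p of 0.293 and 0.262 from the authors' deposited table. The exosome and Ski complex, which degrade RNA from the 3′ end, had 0 of 15 called in either tissue and medians of 0.07 at P12 and -0.01 in ovary, with Dis3l at -0.23 and Dis3 at 0.17 at P12 in the authors' deposited table. In the P8 testis, 0 genes of these decay lists were called with either control. Of all features there, 0.0449% were called with the wild type as control and 0.0577% with the heterozygote. With so few features called, a count of 0 says little about these lists.

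Mitotic transcripts, which the complex is known to lower, were mostly above 0 at P12. Of 15 such genes 13 were above 0, where 52.1% of all features were, with a median of 0.14 against 0.01 for all features. Only Ccna2, the cyclin of S phase and mitosis, rose, at 0.40 (adjusted p = 0.0345, from the authors' deposited table). Of all features, 0.0961% were called higher. Bub1, a spindle checkpoint kinase gene, fell by 0.44 (adjusted p = 0.0427, from the authors' deposited table), where 0.782% of all features were called lower. The other 13 did not pass. In ovary 9 of 15 were above 0, against 51.8% of all features, and 0 were called, against 0.548%. In P8 testis 10 of the 15 lay below 0 against the wild type, where 50.1% of all features lay above 0. Against the heterozygote 13 of the 15 lay below 0, where 51.6% of all features lay above 0. In both, 0 of the 15 were called, against 0.0449% and 0.0577% of all features. All 15 were above 0 between the single heterozygote and the single wild type, where 50.2% of all features were. Among the meiotic entry regulators at P12, Sycp3 fell by 0.66 (adjusted p = 0.00407) and Stra8 stood at 0.39 (adjusted p = 0.187, from the authors' deposited table), and 9 of the 10 listed genes were measured.

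Of 14 germ cell genes for RNA-binding proteins, 0 were called at P12, against 0.878% of all features, and the median was -0.03. In ovary 6 of 12 measured genes fell, against 0.445% of all features called lower, with a median of -0.81 that was -0.44 with no floor on the mean count and -1.14 with a floor of 50. Whether the tissues differed was not tested. Of the 6 germ cell markers 3 fell in the same ovaries (median -0.70), Mael being in both lists, and the part of the markers in these values was not tested. They were the piRNA genes Tdrd1 at -1.83, Mael at -1.21, Piwil2 at -1.16 and Mov10l1 at -1.08, Cpeb1, a translational regulator of oocytes, at -1.37, and the neuronal and oocyte gene Elavl2 at -1.14, in the authors' deposited table. Rbm46, at -0.28 in the same ovaries, was not called, nor were Ddx4 and Dazl, in the authors' deposited table.

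**Figure D5:**
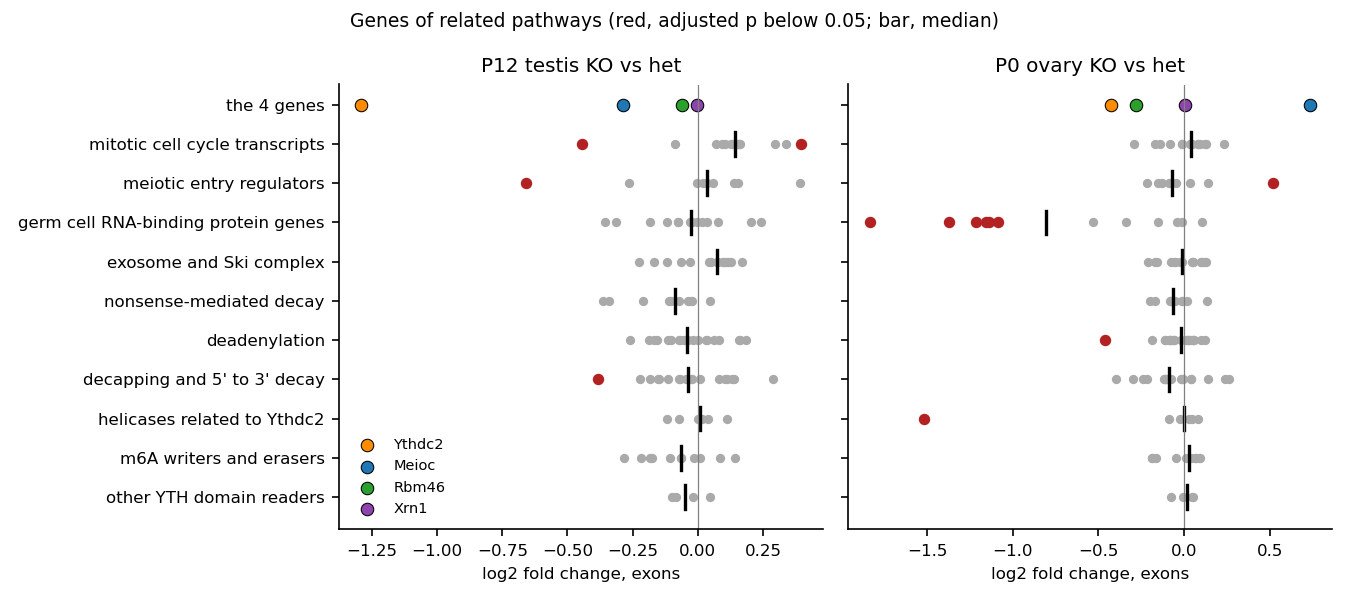
Log2 fold changes of exons (x axis) for genes of 10 lists (y axis) and for the 4 genes (coloured as labelled) in P12 testis and P0 ovary; grey points did not pass, red points in the list rows had an adjusted p below 0.05, and bars are list medians. Ythdc2 at -1.29 lies left of every listed gene at P12, and Meioc at 0.74 lies right of every listed gene in ovary.

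Some genes followed the pattern of a member over the comparisons at P12, in ovary and at P8 against the wild type. Likeness was the distance between the 3 exon folds, each divided by its SD over 9692 genes with mean counts of at least 100. The closest to Meioc were M1ap and Tex101, at distances of 0.853 and 0.978, and Elovl2 at 1.91. In the authors' deposited table M1ap, a gene of male meiosis, stood at -0.25, 0.85 and -0.10 in that order, and Tex101, a germ cell surface protein gene, at -0.40, 0.78 and -0.02. No gene came that close to Ythdc2. Its nearest were Sycp2, a gene of the synaptonemal complex, Tsga10 and Capns1, at distances of 4.53, 4.80 and 4.85, and Sycp2 stood at -0.88, -0.08 and -0.21 in the authors' deposited table.

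Rbm46 and Xrn1 had much closer genes. Xrn1 was near 0 in all 3 comparisons. Rbm46 was near 0 at P12 and P8 but toward the low end in ovary, at -0.28, where 349 of 14606 features were lower. Dcaf12, Naa30 and Polr3c lay at 0.064, 0.165 and 0.173 from Rbm46, and Celf2, Jmjd1c and Flot2 at 0.038, 0.066 and 0.115 from Xrn1. These distances rest on 3 comparisons and say nothing of function.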

How the data were processed

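The mouse tables held the authors' own comparisons, per the file headers: a signal (the mean normalized count of a table's libraries), log2 fold changes and adjusted p-values. DESeq2 and the mm10 build are named in the submitters' processing notes, with cutadapt for ovary; the sources used here do not give the aligner, counting, annotation or versions. Features are split into sense and antisense, per the file headers. The deposited Bind-N-Seq file gave a linear ratio and an unadjusted p-value per 9-mer; its 8 columns of values per library match no label and were not used.

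Groups came from the labels. Sense exon and intron rows of the 4 genes were read with Python 3.11.15 and pandas 2.3.3, ranked among features with a mean count of at least 10, and called at the authors' adjusted p below 0.05, or, with 1 library a group, at a log2 fold over 0.5 in size. Fold columns at P8 and P12 are headed as IP over input, although the labels list total RNA, and they were read as genotype comparisons. Only the P8 columns of the m6A table were matched to names. In it the adjusted p-values of each age were in rising order down the rows, and Spearman's rho between exon and intron ratios over 5364 genes was 0.21 at P8, 0.01 at P12 and -0.02 at P20. Named genes were the 4 members, the called members of 10 gene lists (or the 2 with the largest absolute fold at P12), and the 3 genes closest in pattern to each member. The members and lists were chosen with earlier results of these data known. Symbols were matched to RefSeq (GRCm38.p6) for 124 of 124 list entries. Scripts were tested on simulated data. The alternatives were other thresholds, median centring, the other P8 control and other floors on the mean count. No counts by unadjusted p are given, since the mouse tables used here hold adjusted values.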

Additional observations from a re-analysis of the deposited data

How the results depend on the processing

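Of 72 values of the 4 genes under alternatives (adjusted p of 0.01 or 0.1, fold thresholds of 0.3 or 1, centring on the median of all exon features, the other P8 control), 70 kept their direction and their side of the threshold. The exceptions were Rbm46 at P8, at 0.02 against the wild type and -0.050 with the heterozygote as control, and Meioc in the m6A precipitate, whose 0.38 passed a fold threshold of 0.3. Another threshold changes neither a fold nor its adjusted p, so only centring and the other control could change a direction. Of 392 other values, 387 stayed within 1.5 times the main count, within 0.1 of the main log2 median or, for nearest genes, at 2 or more shared names. With a floor of 50 on the mean count, the calls of Btg4 and Stra8 in ovary were lost (from 1 to 0 in each list), the median of the germ cell RNA-binding genes in ovary went from -0.81 to -1.14 (-0.44 with no floor), and 1 rather than 2 of these genes were above 0.5 in the m6A precipitate; fewer genes are measured at that floor. Nearest genes by pattern kept at least 2 of 3 names for each member with unscaled folds or a floor of 50. No paired analysis was possible because the tables hold no values per library, and for the same reason leaving out single libraries was not run. The P8 and m6A values rest on single libraries in 1 or both groups, and depth per library is unknown.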

Other observations

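Neighbours were the genes with any part within 500 kb of the bounds of a member. Of all features, 0.878% were called at P12 and 0.548% in ovary. Of 4 measured neighbours of Ythdc2 on chromosome 18, 1 was called at P12, Dcp2, and the median log2 fold was -0.01, with 0 of 3 called in ovary, where Dcp2 stood at -0.02 in the authors' deposited table. Of 11 measured neighbours of Xrn1, 1 was called at P12, the checkpoint kinase gene Atr, 101 kb away between the gene centres, at -0.49 (adjusted p = 0.0258, from the authors' deposited table), beside an Xrn1 fold near 0. Of 31 genes around Meioc at P12 and 30 in ovary, 0 were called, and the ovary values ranged from -0.24 to 0.15 beside 0.74 for Meioc itself. Dcp2 and Atr were singled out by position after their values were seen.

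The YTH domain of human YTHDC2, bound to random RNAs with a central m6A, gave the authors' ratios over bead control for 65536 9-mers. The 1024 9-mers with GGAC around the central A, the core of the common m6A consensus, had a median ratio of 0.828 (range 0.498 to 16.6). The other 64512 9-mers had a median of 0.773, in the authors' deposited table. The 5 9-mers with the highest ratios, from 73.4 to 135 in the authors' deposited table, all lacked that core. Only 1024 of the 65536 9-mers hold it, so 5 without it do not show a preference.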
